A study of Rattus norvegicus with 12 samples.

Results

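Rbm46, Adad2, Slc25a31, Rpl10l, Ddx4, Mael, Fkbp6 and Sohlh2 are 8 germline genes of the rat whose RNA was counted in the proliferative PAC1 libraries and was near absent from the others. The 8 were chosen by name out of 33294 genes in the count table, because their counts in proliferative cells had already been seen to differ from those in differentiated cells. Their values in that contrast are therefore given as a description, without a test.

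Germline genes of this kind work in the testis or ovary, in meiosis, in silencing transposons through piRNAs (small RNAs bound by Piwi proteins) and in the translation and energy supply of developing germ cells. Somatic cells such as smooth muscle normally keep them silent. Known means of silencing include DNA methylation of their promoters and a Polycomb complex, PRC1.6, whose subunits E2F6 and MGA-MAX bind DNA directly.

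PAC1 is a single cell line from rat pulmonary artery smooth muscle, and all 12 poly(A) RNA-Seq libraries are cultures of that line. The 4 groups of 3 were D1 (PAC1-D cells with control siRNA), P (PAC1-P cells with control siRNA), RBPMS KD1 (PAC1-D cells with siRNA to Rbpms) and MBNL KD (PAC1-D cells with siRNAs to Mbnl1 and Mbnl2). PAC1-D cells were split 1:10 once a week and PAC1-P cells 1:20 on 2 occasions a week, and each well received 90 pmol of siRNA. The comparison asked of each gene was how its RNA differed between the differentiated and proliferative states, and whether loss of either RNA-binding protein in differentiated cells changed it.

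Libraries held 80842635 to 90771289 counts in total, the lowest in MBNL KD replicate 3, and 19659 to 20904 genes had a count. Rbpms fell from 12299 to 13447 counts in the D1 libraries to 3253 to 3398 in RBPMS KD1, and was at 877 to 897 in P. In MBNL KD, Mbnl1 and Mbnl2 changed by -2.07 (SE 0.026) and -1.75 (SE 0.025) on the log2 scale. The 8 smooth muscle markers examined, among them Acta2 and Myh11, summed to 9819 to 10319 CPM (counts scaled to library size) in D1 and 210 to 224 CPM in P, and all 8 were called lower in P. The smooth muscle markers were thus abundant in D1 and low in P.

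The promoters of the members are shown first, since PRC1.6 is known to find germline genes by 2 DNA motifs. At least 1 of them was in 7 of the 8 windows, and both were in 3. Shares of all windows are given below for each motif, and were not counted for the 2 together. The sequences are from RefSeq on assembly GRCr8, which differs from the assembly of the counts, and were matched by symbol for 7 genes and by synonym for Rpl10l. Each window ran from 250 bases before to 50 after the annotated start of transcription, and position 0 is that start. Capitals mark CACGTG, the E-box bound by MGA-MAX, which reads the same on both strands. They also mark TCCCGC, the core of the E2F6 site, which appears as GCGGGA when it lies on the other strand. None of the matches overlapped another. The 250 bases before the start are printed for Rbm46 and Ddx4, the members that hold both motifs upstream.
Rbm46 (chr2:170540069-170540318, - strand): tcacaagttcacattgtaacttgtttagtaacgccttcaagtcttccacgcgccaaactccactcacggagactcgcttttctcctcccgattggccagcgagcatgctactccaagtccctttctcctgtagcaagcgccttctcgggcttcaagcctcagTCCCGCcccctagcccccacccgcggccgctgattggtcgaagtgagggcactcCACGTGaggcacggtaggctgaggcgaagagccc
Ddx4 (chr2:46015952-46016201, - strand): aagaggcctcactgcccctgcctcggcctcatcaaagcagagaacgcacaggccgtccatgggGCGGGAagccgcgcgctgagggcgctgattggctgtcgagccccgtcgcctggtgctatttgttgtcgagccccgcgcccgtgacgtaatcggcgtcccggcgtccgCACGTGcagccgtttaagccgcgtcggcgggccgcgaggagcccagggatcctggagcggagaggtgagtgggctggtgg

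The E-box was in the windows of 6 of the 8 members, Rpl10l and Sohlh2 being without it. Each of the 6 is shown here with 30 bases, so that the surrounding letters can be compared.
Rbm46 (chr2:170540085-170540114, - strand): gtgagggcactcCACGTGaggcacggtagg
Adad2 (chr19:64573899-64573928, + strand): ctctgcgccacaCACGTGctccacgtataa
Slc25a31 (chr2:125623299-125623328, + strand): cgcaactggaaaCACGTGttggggtcacat
Ddx4 (chr2:46016014-46016043, - strand): tcccggcgtccgCACGTGcagccgtttaag
Mael (chr13:81029827-81029856, - strand): caccaggcctacCACGTGacaattccccgc
Fkbp6 (chr12:26956063-26956092, + strand): cgctgcgccgatCACGTGctattttctcgt
The E-box began 34 bases before the start in Rbm46, 4 in Adad2, 20 in Slc25a31, 80 in Ddx4, 56 in Fkbp6 and 221 in Mael. Of 27457 windows with 1 window a gene, 6.65% held this motif, as did 7.27% of the 19005 protein-coding ones.

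The E2F6 core was in 4 of the 8 windows, shown in the same way.
Rbm46 (chr2:170540139-170540168, - strand): ttcaagcctcagTCCCGCcccctagccccc
Rpl10l (chr6:90282012-90282041, - strand): acactctacggtTCCCGCaaggcttgatgg
Ddx4 (chr2:46016121-46016150, - strand): gccgtccatgggGCGGGAagccgcgcgctg
Mael (chr13:81029591-81029620, - strand): cggttactaaggGCGGGAgcccggcgaggg
It began 88 bases before the start in Rbm46, 47 in Rpl10l and 187 in Ddx4, and 15 bases after it in Mael. The motif was in 19.8% of all windows and in 24.6% of the protein-coding ones. Sohlh2 held neither motif in its window, which says nothing of the rest of its locus.

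**Figure D1:**
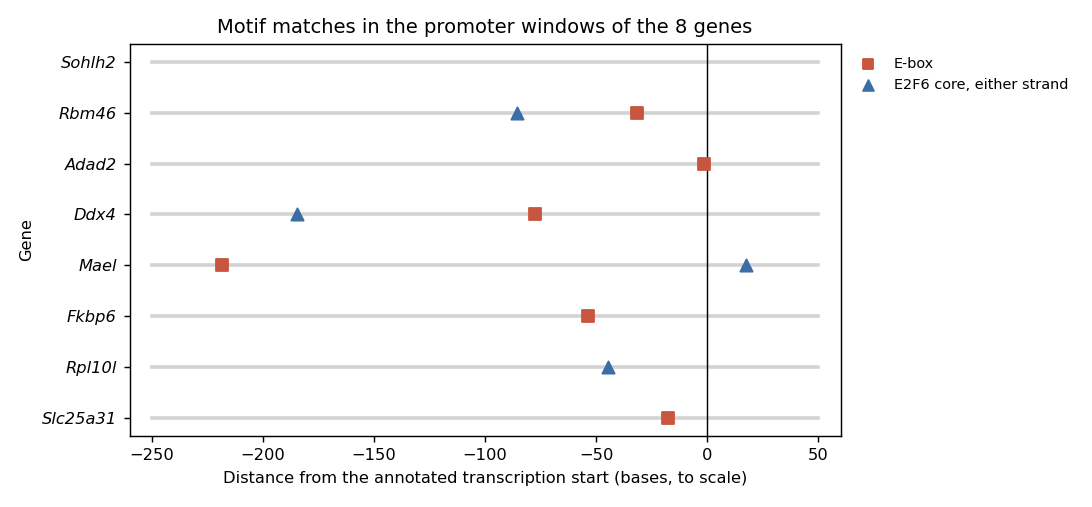
Positions of the 2 motifs in the promoter windows of the 8 genes. The x axis is the distance in bases from the annotated start, each grey line is 1 window, squares are E-boxes and triangles are E2F6 cores. In 5 of the 6 windows with an E-box it begins within 80 bases before the start, and in Mael it lies 221 bases before it.

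CG, the dinucleotide at which DNA is methylated, was also counted in the windows. The ratio of observed to expected CG had a median of 0.79 over the 8 windows and ranged from 0.55 in Slc25a31 to 0.92 in Ddx4. The letters of the windows are a description of sequence, and neither binding nor methylation was measured in these libraries.

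The E-box was also in 21 of the 89 windows found for the other germline genes examined (23.6%), a set of 110 described later. The E2F6 core was in 33 of these 89 windows (37.1%).

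Over all 8 members, a library of P held 69161 to 70167 member counts, a mean of 0.0798% of its total. The summed counts were 2 to 6 in the D1 libraries, 6 to 10 in RBPMS KD1 and 5 to 13 in MBNL KD. No P library overlapped any other library for any member, but the members were chosen for their counts in P against D1. Counts above 10 in every P library and at or under 10 in the 9 others were seen for 2.72% of the genes with a count. The lowest member count in P was 3367, and the highest in the 9 other libraries was 6. In bulk RNA, more cells with a transcript and more transcript per cell cannot be told apart.

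**Figure D2:**
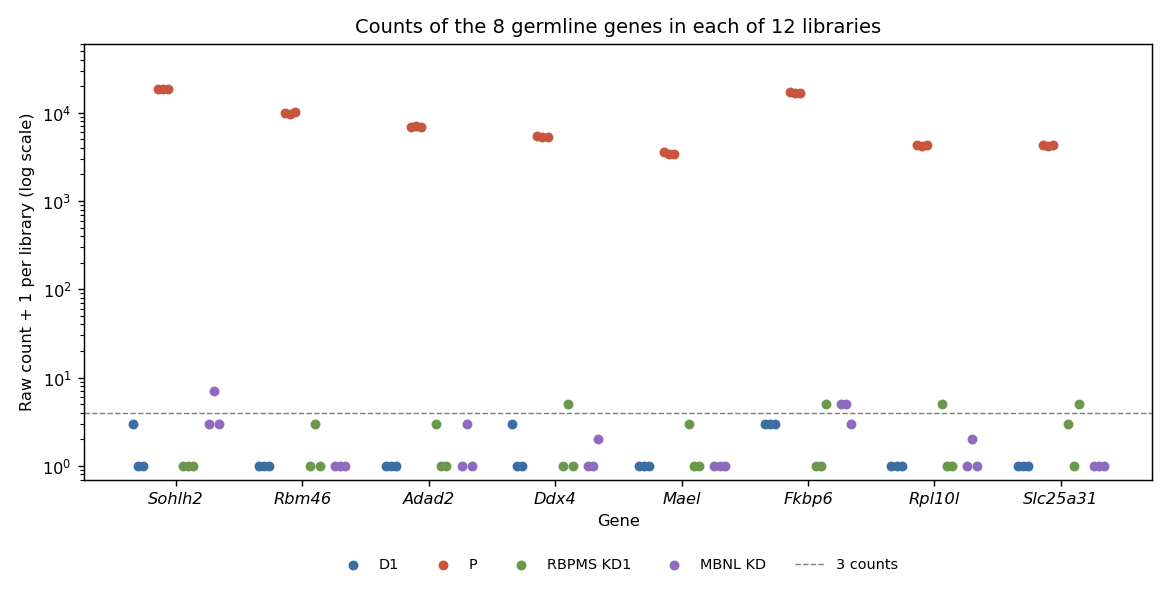
Counts of the 8 genes in each library. Each point is 1 library, the y axis is the raw count with 1 added on a log scale, the colours are the 4 groups and the dashed line marks 3 counts. All P points sit between 3367 and 18754 counts, and all others at or under 6.

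Sohlh2 is a basic helix-loop-helix transcription factor of early spermatogonia and oocytes that works with Sohlh1. Its counts were 18673, 18754 and 18687 in the P libraries and 2, 0 and 0 in D1. It was at 0 in each RBPMS KD1 library and had 2, 6 and 2 counts in MBNL KD, the highest of any member outside P. Scaled by TMM (edgeR's normalization for library size and composition), the mean was 17683 ± 87.6 (SD, n = 3) in P. The ratio of P to D1 was 25883, with a 95% counting interval of 7165 to 213730 that rests on 2 counts in D1 replicate 1. Without that library the other D1 libraries were at 0, and P was at least 5743-fold higher, taking 3 counts per library as the limit of detection. This bound and the ratio are different quantities and are not set against each other.

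Its partner Sohlh1, which is not a member, had 16692 to 17810 counts in P, 1 to 10 in D1, at most 18 in RBPMS KD1 and at most 10 in MBNL KD. Its log2 fold change in P was 11.60 (SE 0.086), and 12.56 without D1 replicate 3. Both genes of the pair were thus detected in every P library at 16692 counts or more and at no more than 18 elsewhere.

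Rbm46 and Adad2 encode RNA-binding proteins of meiotic and later male germ cells. Rbm46, which is needed for germ cells to pass into meiosis, had 9904, 9634 and 10129 counts in P, 0 in every D1 and MBNL KD library, and 0, 2 and 0 in RBPMS KD1. Its scaled mean in P was 9349 ± 245 (SD, n = 3), at least 3041-fold higher than D1, taking 3 counts per library as the limit of detection. Adad2, which carries an adenosine deaminase domain, had 6799, 7109 and 6872 counts in P and 0 in every D1 library, with a single library at 2 in each knockdown. Its scaled mean in P was 6548 ± 165 (SD, n = 3), at least 2130-fold higher than D1. For both genes, each library outside P lay under the limit of 3 counts.

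Ddx4 (Vasa) and Mael (Maelstrom) belong to the nuage, the cytoplasmic granule in which piRNAs are made. Ddx4, a DEAD-box helicase widely used as a germ cell marker, had 5459, 5285 and 5373 counts in P. It had 2, 0 and 0 in D1, 0, 4 and 0 in RBPMS KD1, and 0, 0 and 1 in MBNL KD. Its ratio of P to D1 was 7434, with a counting interval of 2058 to 61391, and without D1 replicate 1, which held both counts, P was at least 1649-fold higher. Outside P, 3 of the 9 libraries thus held a count.

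Mael is needed to silence transposons in the male germline. It had 3555, 3450 and 3367 counts in P, 0 in all D1 and MBNL KD libraries, and 2, 0 and 0 in RBPMS KD1. The scaled mean in P was 3268 ± 77.5 (SD, n = 3), at least 1063-fold higher than D1.

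Fkbp6 encodes an immunophilin of meiotic chromosomes and of piRNA loading. Its P libraries had 17172, 16584 and 16852 counts. It was the only member with a count in each D1 library, 2 in all 3, and had 0, 0 and 4 in RBPMS KD1 and 4, 4 and 2 in MBNL KD. The ratio of P to D1 was 7781 (counting interval 3575 to 21204), and 7 of the 9 libraries outside P held a count. These were still no more than 4 counts each.

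Rpl10l and Slc25a31 are germline copies of genes that other cells use. Rpl10l stands in for the X-linked ribosomal protein gene Rpl10 when the X chromosome is silenced in male meiosis. It had 4270, 4187 and 4286 counts in P, 0 in each D1 library, 4, 0 and 0 in RBPMS KD1 and 0, 1 and 0 in MBNL KD. Its scaled mean in P was 4016 ± 51.1 (SD, n = 3), at least 1306-fold higher than D1. Rpl10l and Rpl10 are close in sequence, and the sharing of reads between them was not tested. The D1 libraries held 0 Rpl10l counts beside a scaled mean of 49167 for Rpl10.

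Slc25a31 encodes the testis ADP/ATP carrier of the inner mitochondrial membrane. It had 4335, 4158 and 4261 counts in P, 0 in every D1 and MBNL KD library, and 2, 0 and 4 in RBPMS KD1. The scaled mean in P was 4019 ± 75.9 (SD, n = 3), at least 1307-fold higher than D1. On 1 scale for all 8 members, the scaled P mean divided by the limit of 3 counts per D1 library, the values were 5752 for Sohlh2, 5187 for Fkbp6 and 1652 for Ddx4, beside 1063 to 3041 for the 5 members at 0 in D1.

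The 3 P libraries were close to each other for every member. The SD of the scaled counts was 0.495% of the mean for Sohlh2 and 2.62% for Rbm46, the ends of the range. The spread from counting alone would be 0.731% for Sohlh2 and 1.01% for Rbm46. Even counts outnumbered odd ones 2.08 to 2.40 times among counts of 1 to 18, so both mates of a fragment appear to have been counted. The counting spreads are then too small and the counting intervals too narrow, and both cover counting error only.

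Outside P, the 8 members gave 72 pairs of gene and library, of which 50 were at 0, 15 at 1 to 3 and 7 above 3 counts. A count was present in 5 of 24 pairs in D1, 8 of 24 in RBPMS KD1 and 9 of 24 in MBNL KD. Rbm46, Adad2 and Mael kept to 3 counts or fewer in all 9 libraries, with a highest count of 2. The other 5 exceeded that limit in at least 1 knockdown library, with highest counts of 4 for Slc25a31, Rpl10l, Ddx4 and Fkbp6 and 6 for Sohlh2. Counts over 3 in every P library and at most 3 in the 9 others were seen for 487 of the 25411 genes with a count (1.92%). At a limit of 10 counts all 8 members met the pattern, as did 692 of those genes (2.72%), and at 1000 or more counts in P they were 8 of 49 (0.193% of genes with a count).

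All 8 members passed the filter on low counts for P against D1 and were called higher (adjusted p under 0.05 and log2 fold change above 1), beside 16.4% of the 16814 genes tested, but nothing is read from this since that contrast chose them. 0 members passed the filter for either knockdown against D1, so no fold is given there. Without a filter, 8 members could be fitted in RBPMS KD1 and 5 in MBNL KD, and by edgeR 0 were called and 0 had an unadjusted p under 0.05. Calls made up 4.68% of the genes that passed the filter in RBPMS KD1 and 10.2% in MBNL KD. With member counts this low, nothing is read from the absence of calls. A fall from D1 was not detectable at this depth, and no knockdown library exceeded 6 counts of a member. In the authors' normalised table all 8 were present. There the members read 35 to 37.2 in D1, where 35 is the lowest value of the table, and the ratio of P to D1 was 94.1 for Mael to 508 for Sohlh2. The folds in that table are limited by its lowest value.

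Among members, profiles over the 12 libraries, compared by Euclidean distance of log2(CPM + 0.1), were nearest for Rpl10l and Mael (0.593), Slc25a31 and Rpl10l (0.611), Slc25a31 and Mael (0.747), and Fkbp6 and Sohlh2 (0.799). Among genes that were not members, the nearest was Kif26a for Rbm46, Fkbp6 and Sohlh2. It was Cracdl for Adad2, Bace2 for Slc25a31, Rpl10l and Mael, and Egln3 for Ddx4. The next nearest added Homer2, Rnf130, Mgst1, Tex19.2 and Sohlh1. The distance was 0.451 between Cracdl and Adad2 and 2.00 between Kif26a and Sohlh2. Of these 9 genes, Sohlh1 was on a germline list.

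The wider germline programme was described with 4 lists of other germline genes, 112 in all, of which 110 were in the count table and 63 passed the filter for P against D1. Of the 63 tested, 31 rose and 6 fell in P, and 26 were not called. That is 49.2% higher and 9.52% lower, against 16.4% and 11.2% of all genes tested, and the median log2 fold change was 1.09 against 0.02. The median was also 1.09 with the 6 genes that had no D1 count set at their lower bound. A further 38 of the 110 were at or under 10 counts in all 12 libraries, and 14 exceeded 10 counts in every P library and in none of the others. The lists were chosen with earlier results of these data known, and genes seen in P alone passed the filter through P. Quantile normalization turned the split of all calls from 59.4% to 45.2% higher, and gave 29 germline genes higher and 11 lower.

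**Figure D3:**
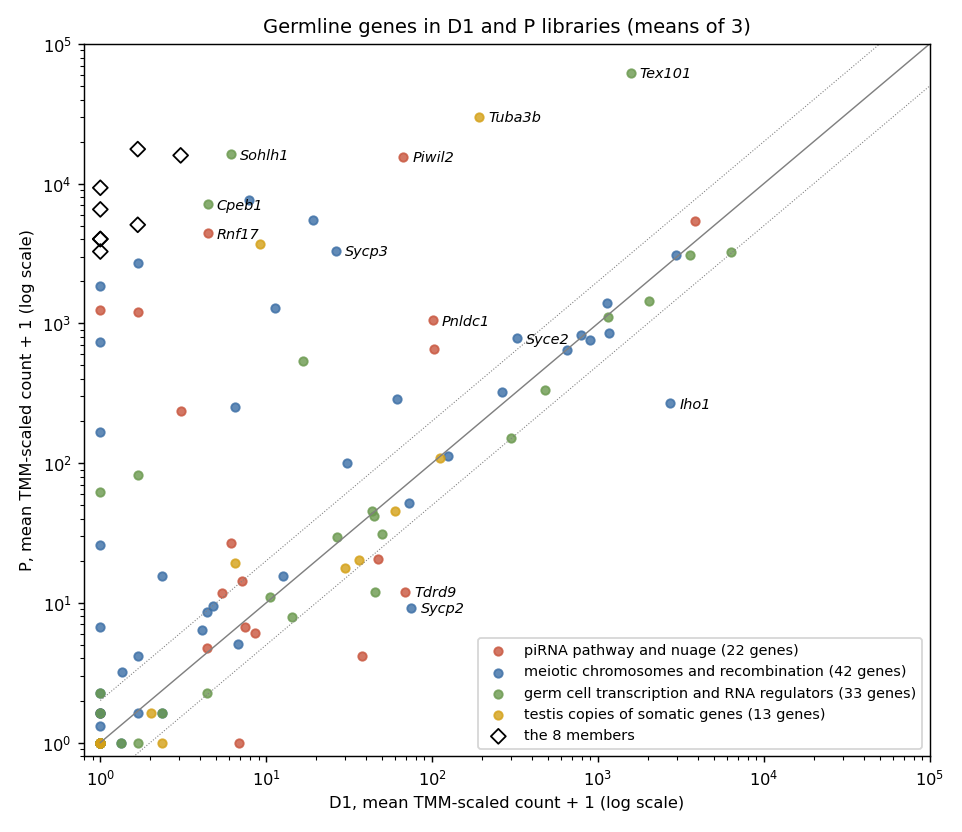
Mean TMM-scaled counts with 1 added in D1 (x axis, log scale) and P (y axis, log scale), n = 3 libraries each, for the 110 listed germline genes and the 8 members. Colours are the 4 lists, diamonds are the members, the solid line marks equal levels and the dotted lines a 2-fold difference. The members stand at the upper left beside Sohlh1, Cpeb1 and Rnf17, while Iho1, Tdrd9 and Sycp2 lie below the lines.

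Genes of the piRNA pathway and nuage, the companions of Ddx4, Mael and Fkbp6, rose in 8 of 13 tested cases (61.5%) and fell in 3. Piwil2, an Argonaute that binds piRNAs, had 56 to 79 counts in D1 and 16344 to 16606 in P, a log2 fold change of 7.87 (SE 0.055). Rnf17, a Tudor protein of the nuage, had 0 to 8 counts in D1 and 4636 to 4724 in P, and rose by 10.29 on the log2 scale (SE 0.13), or by 11.92 without D1 replicate 2 and 9.71 without D1 replicate 3. Tdrkh and Asz1 act on the mitochondrial surface where piRNAs are trimmed. Tdrkh was at 0 in D1 and at 1247 to 1390 counts in P, at least 406-fold higher. Asz1 went from 0 to 2 counts to 1213 to 1384.

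The enzymes that finish piRNA 3′ ends were detected in D1 and also rose. Pnldc1, the trimming exonuclease, went from a scaled mean of 99.7 ± 14.1 to 1055 ± 41.6 (SD, n = 3), and Henmt1, the methyltransferase, from 102 ± 11.1 to 658 ± 38.4. Btbd18, a factor for transcription of piRNA precursors, rose from at most 4 counts to 227 to 272. The 3 that fell were Tdrd9 (log2 fold change -2.61, SE 0.38), Pld6 (-1.23, SE 0.33) and Spocd1 (-3.50, SE 0.50), all at fewer than 90 counts in each D1 library. Without P replicate 3 the value of Tdrd9 was -3.44, and without P replicate 1 that of Spocd1 was -4.20. The piRNA list thus held changes in both directions.

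Of the genes of meiotic chromosomes and recombination, 14 of 26 tested rose (53.8%) and 2 fell, with a median log2 fold change of 1.51. Meiosin, a transcription factor that starts the meiotic programme, went from 4 to 9 counts in D1 to 8065 to 8201 in P. Its log2 fold change was 10.11 (SE 0.085). The synaptonemal complex, which holds paired chromosomes together, was represented on both sides.

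Sycp1, its transverse filament, rose from at most 2 counts to 2812 to 2944. Sycp3, of its axial element, rose from 13 to 33 counts to 3259 to 3810, and Tex12, of its central element, from 9 to 26 counts to 5496 to 6083. Syce2, another central element gene, rose by 1.27 on the log2 scale (SE 0.079) from a D1 mean of 323 scaled counts. Sycp2, the axial partner of Sycp3, moved the other way, from 70 to 74 counts in D1 to 8 to 9 in P.

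Among the other meiotic genes, Smc1b, the meiotic cohesin subunit, and Hormad1, an axis protein, were at 0 in D1. They had 1948 to 2017 and 766 to 804 counts in P. Ccnb1ip1, a crossover factor, rose from 10 counts in each D1 library to 1324 to 1376, and Prdm9, which marks recombination hotspots, from 48 to 75 counts to 296 to 309. Iho1, a factor for the breaks that start recombination, fell from 2475 to 2867 counts to 271 to 297, a log2 fold change of -3.36 (SE 0.067).

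Genes listed as germ cell transcription and RNA regulators rose in 6 of 17 tested cases (35.3%) and fell in 1, and the list's median log2 fold change was -0.04. Beside Sohlh1, Cpeb1, which controls translation through the poly(A) tail, had 1 to 7 counts in D1 and 7482 to 7530 in P. Tex101 and Tex14 are on this list but are a germ cell surface protein and a component of the bridges between germ cells. Tex101 was already present in D1 at 1478 to 1568 counts and reached 64544 to 66760 in P, a log2 fold change of 5.31 (SE 0.032). Tex14 went from 12 to 21 counts to 532 to 606.

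Boll, a relative of Dazl, rose from at most 2 counts to 75 to 101, and Lhx8, an oocyte transcription factor, from 0 to 50 to 75. Nanos3, an RNA-binding protein of primordial germ cells, fell from 36 to 53 counts to 9 to 13. Dazl, Stra8, Dmc1, Spo11 and Piwil1, which were picked out after their values were seen, were at or under 10 counts in all 12 libraries.

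The testis copies of somatic genes, the class of Rpl10l and Slc25a31, rose in 3 of 7 tested cases (42.9%, against 16.4% of all genes tested) and fell in 0. The list's median log2 fold change was -0.06. Of its 13 genes in the count table, 6 were at or under 10 counts in all 12 libraries. Rpl39l, a ribosomal protein copy, went from 6 to 10 counts in D1 to 3807 to 3971 in P, a log2 fold change of 8.79 (SE 0.10). Tuba3b, a testis alpha-tubulin, went from 167 to 209 counts to 30806 to 32875, and Ldhc, a testis lactate dehydrogenase, from 2 to 10 counts to 16 to 22. Reads of Tuba3b may be shared with other alpha-tubulin genes. The call of Ldhc was lost with quantile normalization, where its log2 fold change was 0.55.

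The closest somatic relatives of the members were for the most part already transcribed in D1. Rpl10 had a scaled mean of 49167 ± 660 in D1 and 43783 ± 1158 in P (SD, n = 3), a log2 fold change of -0.17 that became 0.03 with quantile normalization. Slc25a4, the muscle ADP/ATP carrier, changed by -0.15, which became 0.06 with that normalization, and Slc25a5, its ubiquitous form, by -0.55. Ddx3x, a helicase related to Ddx4, changed by -0.46, and these 4 were not called.

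Fkbp4 and Fkbp5, the immunophilins of steroid receptor complexes, were called higher in P, Fkbp4 from 16555 ± 378 to 40789 ± 776 scaled counts and Fkbp5 from 1590 ± 58.0 to 9034 ± 52.2 (SD, n = 3). The relatives of Rbm46 were hardly present: Rbm47 had a scaled mean of 2.06 in D1 and 1.89 in P, and A1cf was at 0 in both. In the knockdowns, Fkbp5 was called lower in MBNL KD (log2 fold change -1.02, SE 0.057), and 0 of the other tested relatives were called in either, whose calls made up 4.68% of the genes tested in RBPMS KD1 and 10.2% in MBNL KD.

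Few of the listed germline genes were called in the knockdowns. In RBPMS KD1, 46 of the 110 were tested, 2 were called higher (4.35%, against 3.06% of all genes tested) and 1 lower (2.17%, against 1.62%). Tdrd9 rose by 1.16 (SE 0.19) and Tdrd12, another Tudor gene, by 1.62 (SE 0.48) on the log2 scale, and Nanos3 changed by -1.34 (SE 0.34). Tdrd12 did not pass the filter once counts were halved. Tdrd9, higher in RBPMS KD1, was lower in P. In 1 fit of 12 libraries 6 germline genes were called in RBPMS KD1, with Cpeb1, Sohlh1 and Sycp1 added.

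In MBNL KD, 44 were tested, 3 were called higher (6.82%, against 6.1% of all genes tested) and 1 lower (2.27%, against 4.14%). Rbm44, a germ cell RNA-binding protein gene, rose from a scaled mean of 298 ± 14.5 to 894 ± 19.4 (SD, n = 3), a log2 fold change of 1.59 (SE 0.077). Taf7l, a testis TFIID subunit, rose by 1.41 (SE 0.45) and Terb1, which tethers telomeres in meiosis, by 1.15 (SE 0.46). Pld6 changed by -2.01 (SE 0.37). Terb1 was not called with quantile normalization (0.86) or in 1 fit of 12 libraries (1.15), and did not pass the filter once counts were halved. It was called neither without D1 replicate 2 (0.90) or 3 (1.06) nor without MBNL KD replicate 1 (1.15) or 3 (0.73), and Taf7l was not called without D1 replicate 2 (1.05). In the separate fits against D1, the shares called in both knockdowns were near those of all genes tested.

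The repressors known to keep germline genes silent were mostly not called. Of 28 listed, 26 were tested in P, 1 rose and 1 fell, 3.85% in each direction against 16.4% and 11.2% of all genes tested, and the median log2 fold change was 0.05. At an adjusted p under 0.05 without the fold threshold, 24 of the 26 differed, 13 higher and 11 lower in P, beside 77.9% of all genes tested. In RBPMS KD1 and in MBNL KD, 0 of the 26 tested were called, while 20 and 23 had an adjusted p under 0.05 by edgeR's quasi-likelihood test, beside 59.1% and 67.5% of all genes tested.

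The gene that fell was Mga, the E-box binding subunit of PRC1.6, from a scaled mean of 2552 ± 28.9 in D1 to 866 ± 27.3 in P (SD, n = 3). Its log2 fold change was -1.56 (SE 0.049; edgeR quasi-likelihood, adjusted p = 2.2e-24). The other subunits named here stayed within the fold threshold of 2. E2f6 changed by -0.57 (SE 0.033), L3mbtl2 by 0.51 (SE 0.033) and Pcgf6 by 0.46 (SE 0.049).

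Of the DNA methylation genes, Dnmt3b, a de novo methyltransferase, averaged 281 ± 63.2 scaled counts in D1 and 818 ± 26.1 in P (SD, n = 3), and its log2 fold change was 1.54 (SE 0.097). Dnmt3a, the other de novo enzyme, changed by -0.91 (SE 0.031). Dnmt1, the maintenance enzyme, changed by 0.44 (SE 0.027), and Uhrf1, which brings it to replicating DNA, by -0.11 (SE 0.030). Dnmt1 and Uhrf1 were thus present in P at 15221 and 5637 scaled counts. Of the Tet enzymes, which oxidise methylcytosine, Tet1 was called lower in P (log2 fold change -1.18, SE 0.062), while Tet2 (-0.14) and Tet3 (-0.63) were not called. Whether any of these changes bears on the members was not tested.

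**Figure D4:**
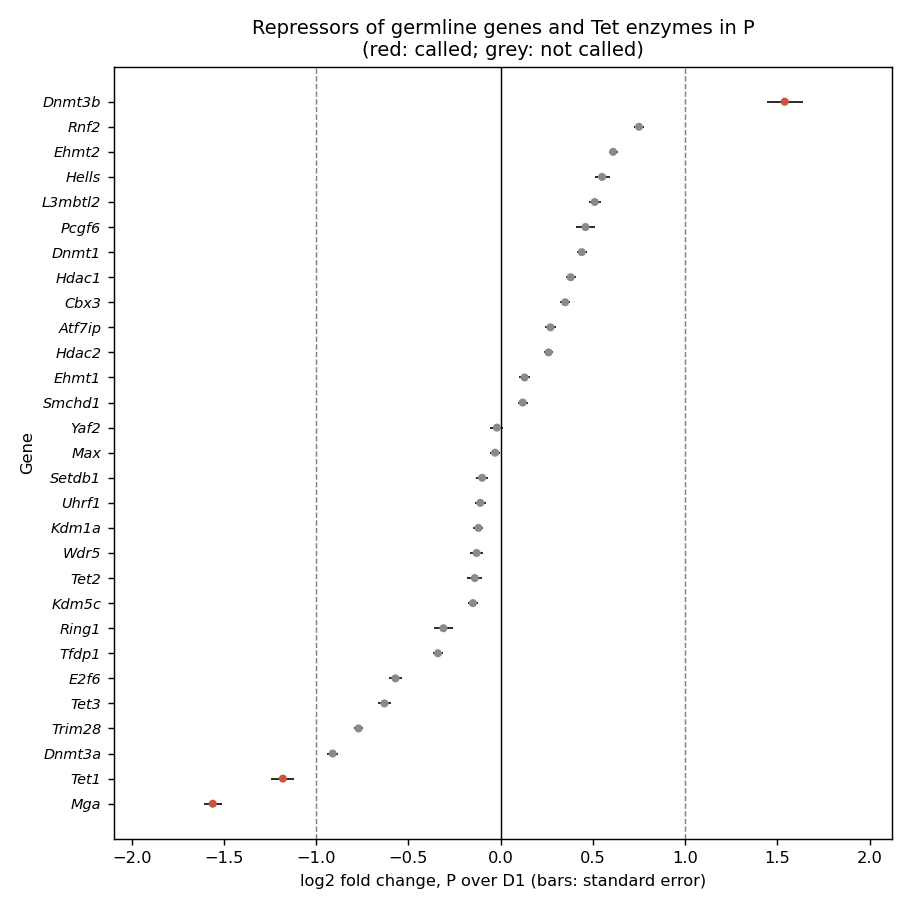
Log2 fold change of P over D1 (x axis) for the 26 tested repressors of germline genes and the 3 Tet genes (y axis), from 3 libraries a group. Bars are standard errors, some smaller than the point, dashed lines mark the fold threshold, and red points were called. Dnmt3b lies beyond the upper line at 1.54, and Mga (-1.56) and Tet1 (-1.18) lie beyond the lower one.

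Genes beside the members on the chromosome were read for a shared change, using RefSeq's order of genes on GRCr8. Of 16 nearest neighbours found in the count table, 7 were tested, 3 rose and 0 fell, beside 16.4% higher and 11.2% lower of all genes tested, and 8 were at or under 10 counts in all 12 libraries. LOC102555909, a long noncoding RNA that overlaps Rbm46, was at 0 in the 9 other libraries and at 250 to 326 counts in P. Its reads cannot be told apart from those of Rbm46 here, since the strand setting of the counting is not given in the sources used here.

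Hspa4l, a heat shock protein gene next to Slc25a31, rose by 1.82 on the log2 scale and was present in D1 at scaled counts of 273 ± 18.3 (SD, n = 3). In MBNL KD, Hspa4l was called lower (log2 fold change -1.16, SE 0.15). LOC120095916, beside Fkbp6, was at 20 to 30 counts in P, 0 in D1 and at most 2 elsewhere. It and LOC102555909 passed the filter through P alone. The other protein-coding neighbours tested, Taf1c beside Adad2, Mdga2 beside Rpl10l, and Il31ra and Slc38a9 beside Ddx4, were not called, with log2 fold changes of -0.30, -0.55, -0.79 and 0.61. Ccdc169, next to Sohlh2, was at 0 in P and D1. Il31ra was called lower with quantile normalization (-1.34).

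Markers of germ cells, of gonadal somatic cells and of other cells were read beside these values. The 12 spermatid markers, among them Prm1 and Tnp1, summed to 22 to 35 counts in the P libraries and 17 to 24 in D1, and 6 of the 12, with Prm1, Tnp1 and Acr, were at 0 in all P libraries. Izumo1, a sperm protein of gamete fusion, had 2 to 12 counts in P and 0 to 2 in D1, a ratio of 6.18 (95% counting interval 1.82 to 32.3), and Odf1, of the sperm tail, had 1 to 11 in P and 0 in D1. Neither passed the filter on low counts. The 8 oocyte markers summed to 15 to 19 counts in P and 6 in each D1 library, and 7 of them were at or under 10 counts in all 12 libraries. The exception, Zar1, had 5 to 12 counts in P and 0 to 2 in D1, a ratio of 8.61 (counting interval 2.66 to 44.3), and was not tested. The 9 markers of gonadal somatic cells summed to 158 to 182 in P and 241 to 316 in D1. Star fell from 183 to 263 counts in D1 to 109 to 120 in P and was called lower. Amh, at 32 to 38 in D1 and 13 to 34 in P, was not called. Insl3 and Cyp11a1 went the other way, with ratios of P to D1 of 4.17 and 3.66. Their counting intervals were 1.68 to 12.3 and 1.19 to 15.2, and neither was tested in P. Cyp11a1 was called higher in MBNL KD (log2 fold change 4.38, SE 0.68). A P library held 69161 to 70167 member counts. The lists held spermatid, oocyte and gonadal somatic markers but none chosen for earlier male germ cells. The presence of gonadal cells was not tested. Of 5 markers of other cells, Cdh5, the endothelial cadherin, was at 122 to 138 counts in P and 0 in D1, and Epcam, an epithelial marker, was at 6 to 8 in P and 0 in all other libraries. Pecam1 was at 3 to 10 in P and 2 to 6 in D1. The part of Cdh5 and Epcam in the member values was not tested.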

How the data were processed

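RNA was measured in 12 poly(A) libraries of rat PAC1 cells made with a directional kit. The authors' deposited raw counts were made by subsampling to 55 M reads, aligning with STAR 2.7.11b to mRatBN7.2 and counting per RefSeq gene with featureCounts. Strand and mate settings are not given in the sources used here. Their second deposited table holds a signal, noise-corrected with noisyR and quantile normalised, with a lowest value of 35 for 19812 genes.

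Each group was compared with D1 in a separate fit of 6 libraries by edgeR 4.0.16 in R 4.3.3: filterByExpr, TMM, quasi-likelihood F test and Benjamini-Hochberg adjustment over all genes tested. Calls needed an adjusted p below 0.05 together with a log2 fold change above 1 or below -1. Standard errors were obtained by dividing each log2 fold change by the root of its F statistic. Quoted p-values measure the spread between 3 cultures of 1 line. With 3 against 3 an exact permutation test cannot go below 0.1. In D1, RBPMS KD1 and MBNL KD the limit of detection was set at 3 counts per library, and ratios against few counts carry exact binomial intervals. On simulated data the fit was tested with known changes.

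The members and gene lists were chosen with earlier results of these data known. Named genes are the 8 members, up to 10 called genes per germline list with most scaled counts, the members' relatives, the repressors called or preset by name, the nearest neighbours and the 3 nearest profiles of each member. Sycp2, the siRNA targets and the marker genes were named outside this rule, Sycp2 after its values were seen. Alternatives were DESeq2 1.42.0 size factors and Wald test, quantile normalization (limma 3.58.1), 2 other filters, 1 fit of 12 libraries, a replicate block, halved counts and leaving out each library. Promoters came from RefSeq. Python 3.11.15 made the summaries.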

Additional observations from a re-analysis of the deposited data

How the results depend on the processing

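The count of germline genes called higher in P lay between 28 and 32 under the 8 alternatives and the removal of each library (31 to 32 for removals), and that of repressors called stayed at 2. Germline genes called lower in P were 6, or 11 with quantile normalization, which added Actl7b, Gapdhs, Rbm44, Rec8 and Ybx2, 7 with no filter, which added Tdrd5, and 6 to 8 with each library removed. Germline genes called in RBPMS KD1 were 3, or 6 in 1 fit of 12 libraries, which added Cpeb1, Sohlh1 and Sycp1, 2 with counts halved, which lost Tdrd12, and 3 to 4 with each library removed. Those called in MBNL KD were 4, or 6 in 1 fit of 12 libraries, which added Cpeb1, Mei1 and Sycp1 and lost Terb1, and 6 with no filter, which added Sycp1 and Tex11, 5 with quantile normalization, which added Tuba3b and Ybx2 and lost Terb1, 3 with counts halved, which lost Terb1, and 3 to 6 with each library removed. The cause of these shifts was not tested. Members at or under 3 counts in all 9 libraries outside P were 3, with 0 free of any count, 8 at a limit of 10 counts, 8 after the counts were halved, and 3 to 4 with each library removed. A stricter limit or a looser one therefore decides this count.

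Replicate numbers did not pair the libraries, since the deviations of same-numbered libraries correlated between -0.0143 and 0.0173. With the replicate block the counts were 31 higher and 6 lower in P, 3 in RBPMS KD1, 4 in MBNL KD and 2 repressors, and the block changed no call among the genes named. Of the 851 values that could be computed for 61 named genes in P, 846 kept their direction and side of the threshold. The exceptions, all with quantile normalization, were Rpl10 (0.03) and Slc25a4 (0.06), which changed sign, Syce1 (1.25) and Ldhc (0.55), which were no longer called, and Il31ra (-1.34), which became called. In RBPMS KD1 the 41 values that could be computed were kept, and in MBNL KD 48 of 55, the others being Terb1 and Taf7l. With counts halved, Hormad2, Ldhc and Syce1 in P, Tdrd12 in RBPMS KD1 and Terb1 in MBNL KD no longer passed the filter, so their calls were lost and they gave no value. The limit of 3 counts per library, on which the lower bounds of the folds rest, was a chosen setting and was not estimated from these data.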

Other observations

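The members were 8 of 49 genes with at least 1000 counts in every P library and at most 10 in each of the 9 others. The genes in this paragraph were picked out after their values were seen. Beside the members and the listed germline genes, the 49 held Tex19.2, a germline gene that restrains transposons, with 2714 to 2987 counts in P and 0 in all other libraries. Its neighbour in name, Tex19.1, had 82 to 114 counts in P and at most 4 elsewhere. Tfap2a and Tfap2b, AP-2 transcription factors of neural crest and ectoderm, had 1086 to 1239 and 1025 to 1121 counts in P and at most 2 elsewhere. The reverse pattern, at most 10 counts in every P library and above 10 in every other, was seen for 178 of the 25411 genes with a count (0.7%).

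Of 5 named Y-linked genes with more than 10 counts in a library, 2 were called higher in P by edgeR, beside 16.4% of all genes tested. Usp9y, a ubiquitin protease gene, had 2517 to 2574 counts in P, at most 2 in D1 and 0 in both knockdowns, so it passed the filter through P alone. Uba1y, a Y-linked copy of the ubiquitin-activating enzyme, had 6195 to 6540 counts in P, 23 to 42 in D1 and 28 to 37 in the knockdowns. Kdm5d, Eif2s3y and Uty were present in all 12 libraries, and their log2 fold changes in P were 0.04, 0.25 and 0.22.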
